A study of Mus musculus with 12 samples.

Results

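AP-1 is a transcription factor made of 2 basic leucine zipper proteins, and the expression of 8 genes that encode such proteins was described in adult neural stem/progenitor cells (aNSPCs). The genes were Fos, Fosb, Fosl1 and Fosl2 of the FOS family, Jun, Junb and Jund of the JUN family, and Batf3, a related zipper protein that pairs with JUN proteins. They were chosen by their names out of 55401 genes, with the values of all 12 samples already known. Every value of these 8 genes is therefore a description and carries no test. This also holds for each count of members that were called or passed a p-value. RNA-seq had been performed on aNSPCs grown from the forebrain of C57BL/6 mice aged 8 to 10 weeks, in medium with 20 ng/mL EGF and 20 ng/mL FGF-2. Cells proliferated or were differentiated with retinoic acid at 1 µM and forskolin, which raises cAMP, at 5 µM. The paper does not state separately whether EGF and FGF-2 stayed in the medium during differentiation. It also does not state, for the RNA-seq samples, how long the cells had been given NAD+ or differentiated before RNA was taken. In its other assays of these cells, NAD+ was given for days and not minutes. Under both conditions a Ctrl group and a group given NAD+ at 1 mM were sequenced, with 3 samples in each of the 4 groups. The groups follow the sample titles, 6 of which name NAD, although a treatment field reads untreated for every sample. The cells are mixed cultures, the labels do not say whether the samples of a group are separate cultures or animals, and a change in the number of cells of a type cannot be told apart from a change in RNA per cell.

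FOS proteins bind DNA only as partners of a JUN protein, whereas JUN proteins also pair among themselves. Growth factor signals reach these genes through the ERK kinases, stress signals reach them through the JNK kinases, and cAMP reaches them through CREB. Several of them are immediate-early genes, which are transcribed within minutes of a stimulus without new protein synthesis, and their products are short-lived. c-Jun is known for driving the cell cycle, whereas JunB and JunD often restrain it, and c-Fos with its partners takes part in glial and neuronal responses to stimuli.

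Expression was given as FPKM, the fragments counted per kilobase after scaling by the sample's mapped fragments, which can be compared between genes. Each value was a multiple of 0.01, and the depth of the samples is unknown. Over all genes of a sample, FPKM summed to 363330 in proliferating Ctrl replicate 1 and to between 308828 and 349649 in the other 11 samples. This replicate also had the lowest value of Mki67 among the proliferating samples (19.79 FPKM, against 39.25 to 45.36 in the other 5), so results of the proliferating samples are also given without it. Sox2, a marker of neural stem cells, was at 128.61 to 251.88 FPKM in all 12 samples, and Gfap, a marker of astrocytes, was at 11.27 to 20.5 FPKM under proliferating and at 545.96 to 998.61 FPKM under differentiation conditions. Of 6 neuronal markers, Tubb3 was at 8.23 to 14.22, Map2 at 10.56 to 20.59 and Dcx at 1.02 to 4.39 FPKM over the 12 samples. The other neuronal markers, Rbfox3, Stmn2 and Syt1, were under 1 FPKM in every sample. So were 7 of 8 microglial markers and all 4 endothelial markers. The summed level of 7 astrocyte markers was 1321 to 1407 FPKM in the Ctrl and 1734 to 1860 FPKM in the NAD+ group under differentiation conditions, and that of 8 oligodendrocyte lineage markers was 452 to 464 and 341 to 375 FPKM. Under proliferating conditions, the sum of the oligodendrocyte lineage markers was 1265 to 1379 FPKM in Ctrl and 1013 to 1045 FPKM with NAD+, and that of 8 neural stem/progenitor markers was 2622 to 2870 and 1608 to 2120 FPKM. These sums moved with the NAD+ group, but the group means of genes within the astrocyte and stem/progenitor sums went both ways. With NAD+ under differentiation, mean Gfap rose from 595 to 977 FPKM and Aldh1l1 fell from 93.5 to 61.3 FPKM. Under proliferating conditions, mean Fabp7 fell from 2107 to 1317 FPKM, whereas mean Nes was 68.8 FPKM in Ctrl and 82.0 FPKM with NAD+. The Nes groups overlapped, at 47.77, 77.63 and 80.94 FPKM in Ctrl and at 62.48, 96.96 and 86.53 FPKM with NAD+. The lowest of these Nes values was that of Ctrl replicate 1. The stem/progenitor sum under differentiation was 762 to 849 FPKM in Ctrl and 755 to 837 FPKM with NAD+. The part of these markers in the values below was not tested.

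The promoters of Fos, Jun and Junb are shown, in which letters that CREB, ATF and AP-1 proteins are known to bind can be read. These promoters were picked after Fos and Junb were seen to be higher with NAD+ under differentiation conditions while Jun was not. A link between the letters and the NAD+ values was not tested. Each run is the 250 bases before the transcription start, 5′ to 3′ on the gene's strand, from RefSeq on GRCm38.p6 (mm10), and lies outside the gene as GENCODE M21 annotates it. The Fos promoter is chr12:85473640-85473889 on the plus strand, the Jun promoter is chr4:95052223-95052472 on the minus strand, and the Junb promoter is chr8:84978749-84978998 on the minus strand. Capitals mark TGACG, the core of the cAMP response element (CRE), and TGACATCA, a variant AP-1 element.
Fos: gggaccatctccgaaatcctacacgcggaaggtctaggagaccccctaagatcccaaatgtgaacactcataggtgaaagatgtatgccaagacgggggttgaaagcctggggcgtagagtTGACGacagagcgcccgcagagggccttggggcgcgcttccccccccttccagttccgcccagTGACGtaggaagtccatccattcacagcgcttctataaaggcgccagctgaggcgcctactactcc
Jun: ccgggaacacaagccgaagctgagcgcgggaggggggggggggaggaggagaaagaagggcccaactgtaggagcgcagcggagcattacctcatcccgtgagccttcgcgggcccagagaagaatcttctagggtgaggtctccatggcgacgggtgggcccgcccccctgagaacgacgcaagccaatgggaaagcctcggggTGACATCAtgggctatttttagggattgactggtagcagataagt
Junb: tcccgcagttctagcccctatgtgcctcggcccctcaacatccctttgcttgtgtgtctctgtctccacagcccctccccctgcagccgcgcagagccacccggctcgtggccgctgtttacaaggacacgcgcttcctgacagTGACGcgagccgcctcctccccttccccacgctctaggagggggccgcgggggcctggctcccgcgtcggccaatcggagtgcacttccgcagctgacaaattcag

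In Fos, TGACG stood 129 to 125 and 66 to 62 bases before the start, and the TATA box TATAAA 33 to 28 bases before it. In Junb, TGACG stood 106 to 102 bases before the start, and in Jun, TGACATCA stood 45 to 38 bases before it. The Fosb promoter held TGACG 60 to 56 bases before its RefSeq start. In the runs taken for Fosl2, Jund and Batf3 none of the searched letters was found. However, their RefSeq starts differ from the GENCODE M21 gene starts. The Fosl2 run (chr5:32136222-32136471) and the Batf3 run (chr1:191098164-191098413) lie inside the gene, and the Jund run (chr8:70697489-70697738) ends well before it. The bases just before the GENCODE starts of these genes were not searched. Fosl1 is named only. The search covered both strands of 32851 RefSeq promoters of this length, of which 17.8% held TGACG, 1.55% the full CRE TGACGTCA (which contains TGACG), 6.75% the AP-1 element TGANTCA, 2.93% TGACATCA, 12.4% TATAAA and 1.47% the CArG box that SRF binds. A match is a match of letters and not a measured binding site.

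The gene bodies of the 8 genes lie on 7 chromosomes of mm10. Fos lies at chr12:85473890-85477273, Fosb at chr7:19302696-19310051, Fosl1 at chr19:5447547-5455946 and Fosl2 at chr5:32135801-32157842. Jun lies at chr4:95049034-95052222, Junb at chr8:84974484-84978718, Jund at chr8:70698949-70700616 and Batf3 at chr1:191097847-191108945.

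Among the JUN genes, Jund and Jun had the highest FPKM values of the 8 genes under proliferating conditions, and Junb was far below them. Jund was at 136.88, 88.33 and 91.92 FPKM in the proliferating Ctrl and at 106.80, 124.10 and 112.90 FPKM in the proliferating NAD+ samples. Under differentiation conditions, Jund was at 66.55, 67.21 and 48.48 FPKM in Ctrl and at 75.49, 67.28 and 54.42 FPKM in the NAD+ group. The Ctrl and NAD+ values of Jund overlapped under both conditions, and every differentiation sample was below every proliferating sample. JunD is a JUN protein that many resting cells carry at a steady level.

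Jun was at 51.46, 50.34 and 49.69 FPKM in the proliferating Ctrl and at 58.29, 60.79 and 56.59 FPKM in the proliferating NAD+ samples. Under differentiation conditions, it was at 23.93, 23.07 and 19.81 FPKM in Ctrl and at 26.48, 22.29 and 24.67 FPKM in the NAD+ group. The 3 NAD+ samples were above the 3 Ctrl samples under proliferating conditions and overlapped them under differentiation conditions. The means were 50.5 ± 0.90 and 58.6 ± 2.11 FPKM (SD, n = 3) under proliferating and 22.3 ± 2.17 and 24.5 ± 2.10 FPKM (SD, n = 3) under differentiation conditions.

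Junb had the opposite order of conditions. It was at 2.41, 3.43 and 4.01 FPKM in the proliferating Ctrl and at 4.92, 5.68 and 6.13 FPKM in the proliferating NAD+ samples. It was at 10.74, 11.14 and 10.96 FPKM in the differentiation Ctrl and at 34.00, 29.44 and 32.64 FPKM in the differentiation NAD+ samples. The 4 groups of Junb did not overlap, and their means ran from 3.28 ± 0.81 over 5.58 ± 0.61 and 10.9 ± 0.20 to 32.0 ± 2.34 FPKM (SD, n = 3 each).

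**Figure D1:**
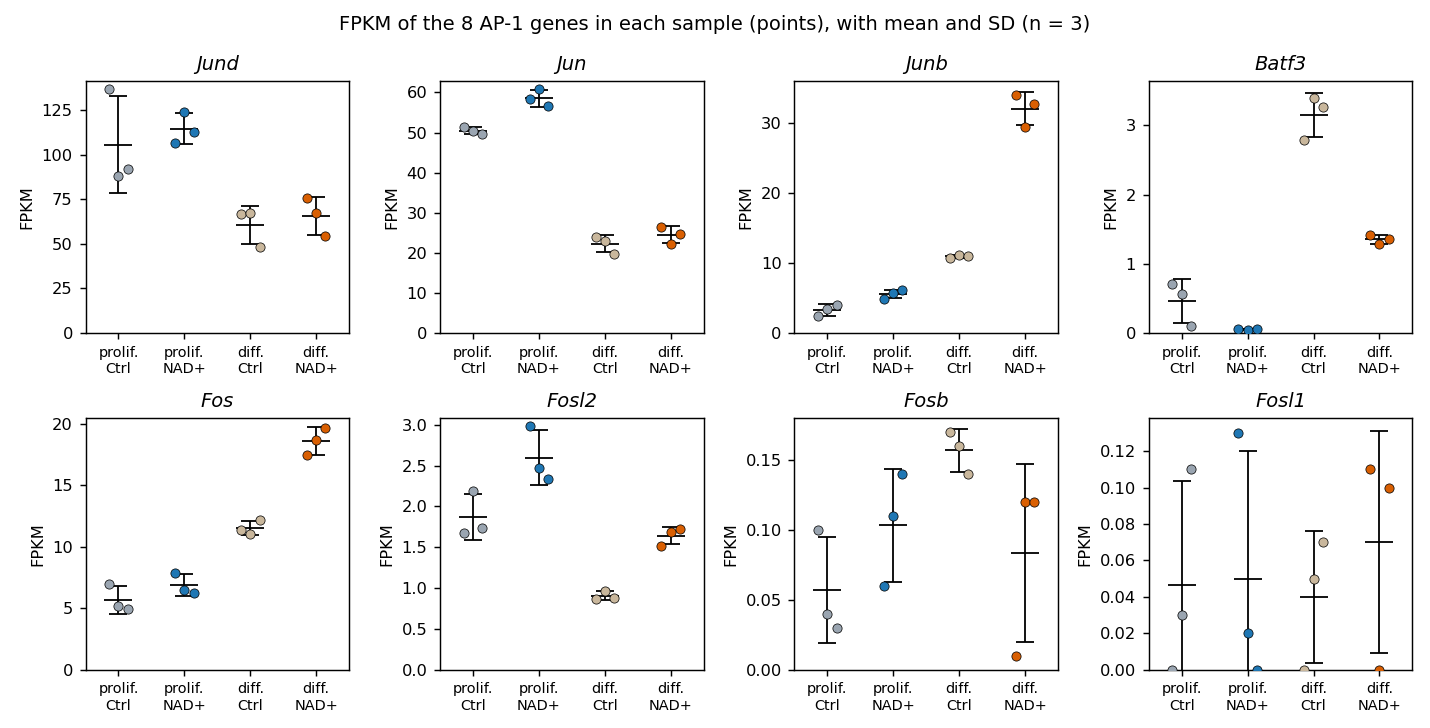
FPKM value (vertical axis, linear, from 0) of each of the 8 AP-1 genes in the 4 groups, with a point for each sample and bars for the mean and SD of 3 samples. The points of Junb form 4 separate levels from 2.41 to 34.00 FPKM, Jund and Jun are lower under differentiation conditions, and Fosb and Fosl1 stay at or under 0.17 FPKM.

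Among the FOS genes, Fos had the highest values. It was at 6.99, 5.16 and 4.92 FPKM in the proliferating Ctrl and at 7.87, 6.49 and 6.26 FPKM in the proliferating NAD+ samples. Under differentiation conditions, it was at 11.37, 11.05 and 12.14 FPKM in Ctrl and at 17.45, 18.67 and 19.68 FPKM in the NAD+ group. The Ctrl and NAD+ values overlapped under proliferating and were separate under differentiation conditions, where the means were 11.5 ± 0.56 and 18.6 ± 1.12 FPKM (SD, n = 3).

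Fosl2, whose product lacks the strong activation domain of c-Fos, was at 1.68, 2.19 and 1.74 FPKM in the proliferating Ctrl and at 2.98, 2.47 and 2.34 FPKM in the proliferating NAD+ samples. Under differentiation conditions, it was at 0.87, 0.97 and 0.88 FPKM in Ctrl and at 1.52, 1.69 and 1.72 FPKM in the NAD+ group. The NAD+ samples were above the Ctrl samples under both conditions, and the proliferating Ctrl and differentiation NAD+ samples overlapped. The order of the group means of Fosl2 was that of Jun and not that of Fos.

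Fosb was at 0.10, 0.04 and 0.03 FPKM in the proliferating Ctrl, at 0.06, 0.11 and 0.14 FPKM in the proliferating NAD+, at 0.17, 0.16 and 0.14 FPKM in the differentiation Ctrl and at 0.01, 0.12 and 0.12 FPKM in the differentiation NAD+ samples. Fosl1 lay between 0 and 0.13 FPKM in all 12 samples, its groups overlapped in every comparison, and it did not reach the mean FPKM of 0.1 that was required for a fit. FosB and the Fosl1 product are induced by strong or repeated stimuli in many cells, and at these levels a step of 0.01 FPKM is a large part of the value.

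Batf3 was at 0.71, 0.56 and 0.10 FPKM in the proliferating Ctrl and at 0.06, 0.04 and 0.06 FPKM in the proliferating NAD+ samples. Under differentiation conditions, it was at 2.79, 3.40 and 3.26 FPKM in Ctrl and at 1.41, 1.29 and 1.36 FPKM in the NAD+ group. The NAD+ samples were below the Ctrl samples under both conditions, by 2.33-fold in the means under differentiation conditions, and every differentiation sample was above every proliferating sample. BATF3 has no activation domain of its own and is best known for the development of a class of dendritic cells. Among 5 dendritic cell markers, Xcr1, Clec9a, Flt3 and Itgax were under 1 FPKM in all 12 samples, and the summed level of the 5 was 0.78 to 1.70 FPKM. The other marker, Zbtb46, was at 0.78 to 1.24 FPKM under proliferating and at 1.24 to 1.54 FPKM under differentiation conditions.

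The make-up of the summed FPKM of the 8 genes differed between the groups. Jund made up 58.9% to 68.4% of the sum in the proliferating Ctrl and 40.4% to 48.2% in the differentiation NAD+ samples. Junb made up 1.20% to 2.63% in the proliferating Ctrl, 2.72% to 3.32% in the proliferating NAD+, 9.23% to 11.4% in the differentiation Ctrl and 20.9% to 24.2% in the differentiation NAD+ samples. Fos made up 3.23% to 4.35% of the sum in the 6 proliferating samples and 9.44% to 14.6% in the 6 differentiation samples. The ratio of Jun to Junb in FPKM was 21.4, 14.7 and 12.4 in the proliferating Ctrl, 11.8, 10.7 and 9.23 in the proliferating NAD+, 2.23, 2.07 and 1.81 in the differentiation Ctrl and 0.779, 0.757 and 0.756 in the differentiation NAD+ samples. Jun was therefore above Junb in 9 samples and below it in the 3 differentiation NAD+ samples. The FPKM of JUN genes summed to 15.4 to 21.8 times that of FOS genes in the proliferating samples and to 5.17 to 8.29 times in the differentiation samples. These are levels of RNA, and the amounts of the proteins or of their pairs were not measured.

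**Figure D2:**
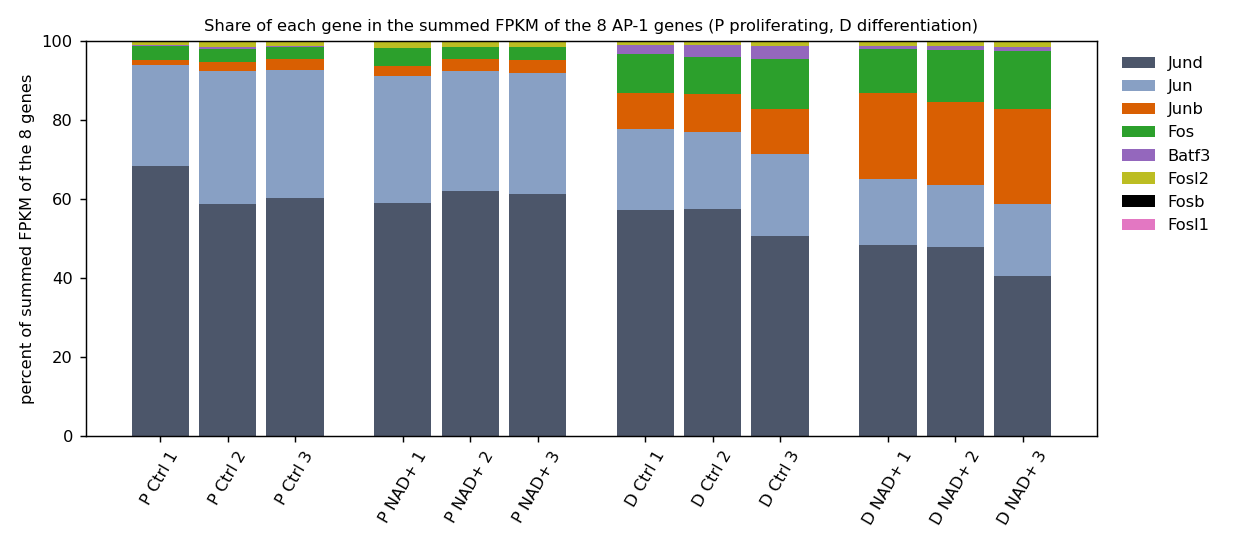
Share (percent, vertical axis) of each gene in the summed FPKM of the 8 AP-1 genes, with a bar for each of the 12 samples. The share of Junb is 1.20% to 2.63% in the proliferating Ctrl and 20.9% to 24.2% in the differentiation NAD+ samples, and Fosb and Fosl1 are too low to be seen.

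NAD+ was compared with Ctrl to learn how it changes the transcripts of aNSPCs. A log2 difference is the difference of means of log2(FPKM + 0.1) with its standard error (SE) from limma, a scale on which the changes of low genes are understated. A gene was called when its adjusted p-value was under 0.05 by limma with Benjamini-Hochberg adjustment over all tested genes. Under differentiation conditions, 3 of 7 tested members were called higher (Fos, Fosl2 and Junb) and 1 lower (Batf3), beside 2.27% and 4.65% of all 19611 genes tested. The groups did not overlap for 3 higher members (the same 3) and 2 lower members (Fosb and Batf3), beside 9.68% and 21.1% of all genes tested. Since these values were known when the members were chosen, nothing is read from the counts.

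The log2 difference under differentiation conditions was 1.54 (SE 0.066) for Junb, a 2.93-fold difference of the mean FPKM. It was 0.69 (SE 0.068) for Fos, 1.61-fold, and 0.79 (SE 0.12) for Fosl2, 1.81-fold. It was -1.16 (SE 0.11) for Batf3 and -0.55 (SE 0.38) for Fosb, which was at -0.22 without NAD+ replicate 1 (0.01 FPKM). The differences of Jun and Jund, 0.14 (SE 0.096) and 0.12 (SE 0.17), were of the size of their errors, and the median of all genes tested was -0.08. Fos, Junb and Batf3 stayed called when each of the 6 samples was left out in turn. Their log2 differences over the refits were 0.64 to 0.73, 1.49 to 1.60 and -1.24 to -1.10. Since the members were chosen with these values known, a call that stays is a description and no test of an effect. Fosl2 was no longer called without Ctrl replicate 1, 2 or 3 or NAD+ replicate 2 or 3, with a log2 difference of 0.76 to 0.84 over all 6 refits.

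Under proliferating conditions, 0 of 6 tested members were called by limma, beside 0.0484% of all 18597 genes tested called higher and 0.0968% called lower. At an unadjusted p-value under 0.05, 4 of the 6 members (Fosl2, Jun, Junb and Batf3) and 15.4% of all genes passed. The groups did not overlap for Fosl2, Jun and Junb, which were higher, and for Batf3, which was lower, beside 15.5% and 8.59% of all genes tested. The log2 difference was 0.77 (SE 0.20) for Junb, a 1.70-fold difference of the means, and 0.57 without Ctrl replicate 1. It was 0.45 (SE 0.17) for Fosl2, 0.21 (SE 0.069) for Jun, 0.28 (SE 0.17) for Fos and 0.14 (SE 0.17) for Jund, and 0.39, 0.23, 0.43 and 0.34 without that replicate. For Batf3 it was -1.63 (SE 0.55), and -1.25 without Ctrl replicate 1, from values that were all under 1 FPKM. The median of all genes tested was 0.07.

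The NAD+ effect was also compared between the conditions in 1 limma fit of all 12 samples, as the log2 difference under differentiation conditions minus that under proliferating conditions. By limma, 0 of 7 tested members were called, beside 0.221% of 19498 genes tested called higher and 0.246% called lower, and 1 member (Junb) and 15.5% of all genes had an unadjusted p-value under 0.05. The difference of the effects was 0.77 (SE 0.22) for Junb, 0.41 (SE 0.19) for Fos, 0.34 (SE 0.20) for Fosl2, -0.08 (SE 0.12) for Jun, -0.03 (SE 0.26) for Jund, 0.48 (SE 0.58) for Batf3 and -0.94 (SE 0.47) for Fosb. Without proliferating Ctrl replicate 1, the difference for Junb was 0.97 and the gene was called, whereas that for Batf3 was 0.09. Over all 12 refits without 1 sample, the difference for Batf3 ran from 0.09 to 1.10 (without proliferating Ctrl replicate 3). The median over all genes was -0.16, and with median-ratio scaling of the samples it was -0.01, the sign of the difference for Jun and Jund then turning to 0.08 and 0.13. Of all genes called in this comparison, 47.3% were higher, and 75.3% with median-ratio scaling.

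**Figure D3:**
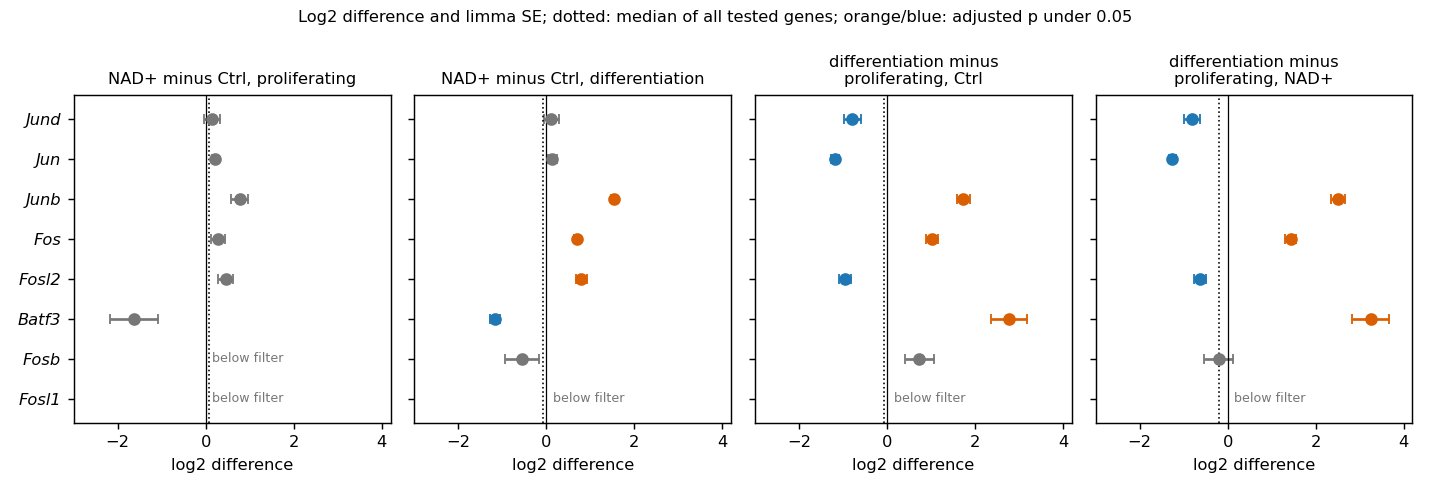
Log2 difference (horizontal axis, log2(FPKM + 0.1) scale) of the 8 AP-1 genes in 4 comparisons, with the limma SE as bars, a dotted line at the median of all tested genes, and orange or blue points for genes called higher or lower. Junb lies at 1.54 for NAD+ under differentiation conditions, Jun and Jund lie near 0 for NAD+ and near -1 between the conditions, and Fosb and Fosl1 have no point where their mean was under 0.1 FPKM.

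Between the conditions, the 8 genes did not move one way. In the Ctrl samples, 3 of 7 tested members were called higher under differentiation conditions (Fos, Junb and Batf3) and 3 lower (Fosl2, Jun and Jund), beside 25.0% and 31.6% of all 19498 genes tested. In the NAD+ samples the same 3 were called higher and the same 3 lower, beside 20.8% and 37.6% of all genes tested. The 2 comparisons use different samples, but the members were chosen with both known. In Ctrl, the log2 difference was 2.77 (SE 0.41) for Batf3, 1.74 (SE 0.15) for Junb and 1.02 (SE 0.13) for Fos, and -1.18 (SE 0.083) for Jun, -0.96 (SE 0.14) for Fosl2 and -0.78 (SE 0.19) for Jund. In the NAD+ samples, it was 3.25, 2.50 and 1.43 for the higher and -1.26, -0.62 and -0.81 for the lower members, in the same order. Fosb had a log2 difference of 0.74 (SE 0.33) in Ctrl and of -0.20 (SE 0.33) in the NAD+ samples. In Ctrl it was called without proliferating Ctrl replicate 1 (0.93) or differentiation NAD+ replicate 1 (0.74). There it also passed the thresholds of the study (over 2-fold, with an unadjusted limma p under 0.05). The summed level of 4 cell cycle genes was 92.4 to 144 FPKM under proliferating and 1.87 to 2.32 FPKM under differentiation conditions, and the part of this change in the member values was not tested.

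Scaling moved these values. The median log2 difference of all genes in the NAD+ samples was -0.20 as deposited and 0.06 with median-ratio scaling, and relative to the median as deposited the differences were 2.71 for Junb, 1.63 for Fos, -1.06 for Jun, -0.61 for Jund and -0.42 for Fosl2. With quantile normalization, Jund was no longer called in Ctrl (-0.26) or in the NAD+ samples (-0.32). With median-ratio scaling, Fosl2 was no longer called in the NAD+ samples (-0.35). Of all genes called, 35.6% were higher in the NAD+ samples as deposited and 51.3% with median-ratio scaling, and 32.8% and 53.2% for NAD+ under differentiation conditions. No member changed its direction between the conditions under either scaling.

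The genes of other AP-1 partners and of the pathways that reach AP-1 were tested in 8 lists, which together held 133 genes of the tables. These lists were put together with earlier results of these data known, and their calls share the samples with the members. Under proliferating conditions, 0 of 120 tested list genes were called by limma, and 27 (23 higher and 4 lower) had an unadjusted p-value under 0.05, as did 15.4% of all genes. In differentiating cells, 13 of 121 tested list genes were called higher and 5 lower, beside 2.27% and 4.65% of all genes. Named in each list are up to 4 called genes, or where none was called the 2 with the largest difference, in both cases among genes with a mean of at least 1 FPKM in a group.

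Of 23 other immediate-early genes tested under differentiation conditions, 7 rose with NAD+ and 0 fell by limma, and 10 rose and 0 fell at an unadjusted p-value under 0.05. The list's median log2 difference was 0.28, beside -0.08 for all genes. Egr1, a zinc finger factor induced through ERK, was at 4.48, 5.13 and 6.22 FPKM in Ctrl and at 9.39, 11.51 and 11.86 FPKM with NAD+ (log2 difference 1.04, SE 0.14, limma adjusted p = 0.0138). Nr4a3, an orphan nuclear receptor, was at 0.85, 0.87 and 1.30 FPKM in Ctrl and at 3.11, 2.79 and 2.49 FPKM with NAD+ (1.41, SE 0.19, adjusted p = 0.0124). The groups of both genes were separate. Ier3, a short-lived survival factor, rose from 8.12 ± 1.17 to 17.8 ± 4.06 FPKM (SD, n = 3; log2 difference 1.11, limma adjusted p = 0.0202). Egr3 rose from 0.32 ± 0.15 to 1.00 ± 0.078 FPKM (SD, n = 3; log2 difference 1.47, limma adjusted p = 0.0442). The other 3 that rose were Klf4, Ier2 and Klf6, with log2 differences of 0.80, 0.52 and 0.46, and these were named after their values were seen. With 1 sample left out the list had 1 to 5 calls, and without moderation of the variance it had 0. Nr4a3 was lost without Ctrl replicate 1 (adjusted p up to 0.0513) and Egr1 without Ctrl replicate 2 or NAD+ replicate 3 (up to 0.0549). Ier3 was lost without any of the Ctrl replicates or NAD+ replicate 2 (up to 0.0708), and Egr3 when any 1 of the 6 samples was left out (0.0575 to 0.121). Ier2 was kept only without NAD+ replicate 3, and Klf4 and Klf6 only without NAD+ replicate 1 (adjusted p of the 3 genes from 0.0446 to 0.125 over the refits).

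Under proliferating conditions, 0 of 22 tested immediate-early genes were called, and 8 had an unadjusted p-value under 0.05, 7 of them higher. Arc, a synaptic immediate-early gene, was at 1.53, 3.09 and 3.56 FPKM in Ctrl and at 5.39, 7.98 and 8.19 FPKM with NAD+ (log2 difference 1.42, SE 0.33, limma adjusted p = 0.141), and the difference was 1.07 without Ctrl replicate 1. Egr3 was at 0.653 ± 0.35 and 1.72 ± 0.57 FPKM (SD, n = 3; 1.36, limma adjusted p = 0.252; 0.88 without that replicate). Ier3 was the only list gene whose NAD+ effect was called different between the conditions, by 1.28 (SE 0.21, limma adjusted p = 0.0342), and this call held without proliferating Ctrl replicate 1 or differentiation NAD+ replicate 1 or 3 only (adjusted p 0.0284 to 0.0905 over 12 refits).

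**Figure D4:**
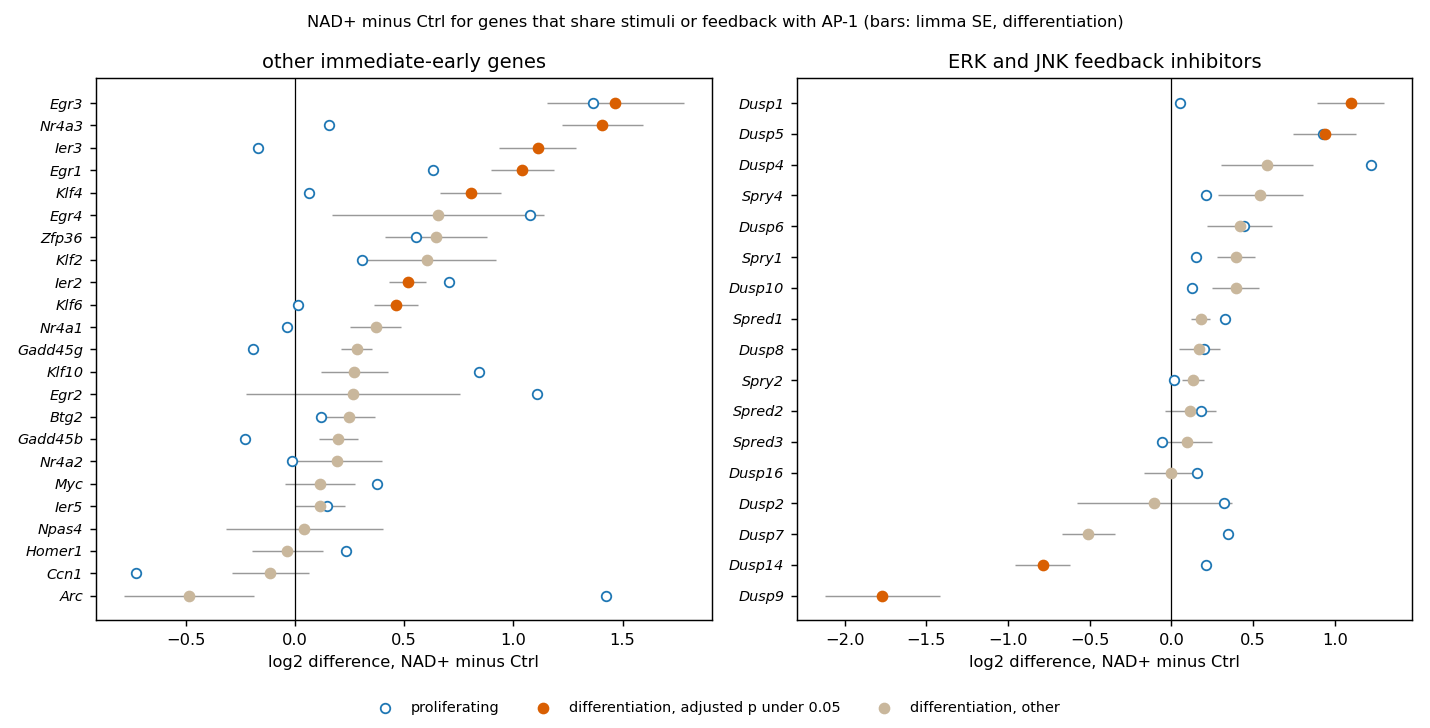
Log2 difference (horizontal axis, NAD+ minus Ctrl, log2(FPKM + 0.1) scale) of each gene tested under differentiation conditions in 2 lists, filled for differentiation conditions with the limma SE and open for proliferating conditions. Among the immediate-early genes 20 of 23 filled points lie above 0, with 7 called, whereas the feedback inhibitors have 2 called on each side.

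The feedback inhibitors of ERK and JNK are phosphatases of the Dusp family and Sprouty and Spred proteins, many of them induced by the signal they end. Of 17 tested under differentiation conditions, 2 rose and 2 fell with NAD+, with a median log2 difference of 0.17. Dusp1, which acts on JNK, p38 and ERK, rose from 0.570 ± 0.12 to 1.33 ± 0.22 FPKM (SD, n = 3; log2 difference 1.10, limma adjusted p = 0.0316). Dusp5, which acts on ERK in the nucleus, rose from 0.810 ± 0.075 to 1.67 ± 0.37 FPKM (SD, n = 3; 0.94, limma adjusted p = 0.0392). Dusp14 fell from 2.13 ± 0.45 to 1.18 ± 0.10 FPKM (SD, n = 3; -0.79, limma adjusted p = 0.0435), and Dusp9, named after its values were seen, fell from 0.433 ± 0.058 to 0.0633 ± 0.057 FPKM (SD, n = 3; -1.77, limma adjusted p = 0.0356). Dusp1, Dusp9 and Dusp14 were no longer called when any 1 of the 6 samples was left out (adjusted p from 0.0546 to 0.126), and Dusp5 was kept only without NAD+ replicate 1 (adjusted p 0.0316 to 0.117 over the refits). Dusp14 was also lost with either scaling, and the list had 0 calls without moderation of the variance.

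Under proliferating conditions, 0 of 16 tested feedback inhibitors were called, and 2 had an unadjusted p-value under 0.05. Dusp5 was at 3.61, 2.93 and 3.11 FPKM in Ctrl and at 6.03, 6.11 and 6.47 FPKM with NAD+ (log2 difference 0.93, SE 0.12, limma adjusted p = 0.0573), and without Ctrl replicate 1 it was called (adjusted p = 0.0415). Dusp4 was at 2.77 ± 1.02 and 6.29 ± 0.24 FPKM (SD, n = 3; 1.22, limma adjusted p = 0.131; 0.90 without Ctrl replicate 1). Between the conditions, 14 of 17 fell and 1 (Dusp9) rose under differentiation in Ctrl, with a list median of -1.75 beside -0.06 for all genes, and 14 fell and 0 rose in the NAD+ samples.

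Of 15 tested ERK pathway genes, 1 fell with NAD+ under differentiation conditions: Map2k2, the ERK kinase MEK2, from 11.2 ± 0.48 to 9.03 ± 0.19 FPKM (SD, n = 3; log2 difference -0.31, limma adjusted p = 0.0304). Of 16 tested JNK pathway genes, 1 rose: Map3k5, the stress kinase ASK1, from 2.07 ± 0.090 to 2.97 ± 0.067 FPKM (SD, n = 3; 0.50, limma adjusted p = 0.0254). Both were lost when any 1 of the 6 samples was left out (adjusted p from 0.0670 to 0.106), and Map2k2 also with either scaling. The list medians were -0.09 and -0.13. Under proliferating conditions, limma called 0 of the 15 and 0 of the 16, and 1 and 5 of them had an unadjusted p-value under 0.05. There, the log2 differences were 0.67 for Rps6ka3 (limma adjusted p = 0.479) and 0.48 for Rps6ka1 (0.403), kinases downstream of ERK, and 0.60 for Map3k5 (0.226) and 0.53 for Mapk9 (0.214), the JNK2 gene. Without Ctrl replicate 1 the differences were 0.14, 0.62, 0.57 and 0.39.

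Among 16 tested regulators of the Fos and Jun genes (SRF, its partners, CREB and MEF2 proteins), 1 fell with NAD+ under differentiation conditions. Mef2a, of a family of factors known to bind the Jun promoter, fell from 5.31 ± 0.10 to 4.22 ± 0.14 FPKM (SD, n = 3; log2 difference -0.32, limma adjusted p = 0.0417). This call was lost when any 1 of the 6 samples was left out (adjusted p from 0.0751 to 0.135) and with either scaling. In proliferating cells 0 of 16 were called by limma, 3 had an unadjusted p-value under 0.05, and the differences were 0.47 for Mrtfb (limma adjusted p = 0.441) and 0.44 for Srf (0.283), or 0.14 and 0.30 without Ctrl replicate 1.

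Of 11 tested genes of other zipper proteins that pair with FOS or JUN, 1 fell with NAD+ under differentiation conditions. Atf4, the main factor of the integrated stress response, was at 25.92, 25.56 and 23.17 FPKM in Ctrl and at 17.62, 17.34 and 16.71 FPKM with NAD+ (log2 difference -0.53, SE 0.061, limma adjusted p = 0.00869). Its groups were separate, and it stayed called when each of the 6 samples was left out in turn (adjusted p 0.0225 to 0.0437). Batf and Batf2, the closest relatives of Batf3, were at 0.04 FPKM or less and at 0.11 FPKM or less in all 12 samples and were not tested. In proliferating cells limma called 0 of 11, and 1 had an unadjusted p-value under 0.05. Maf was at 6.74 ± 0.15 and 11.7 ± 2.51 FPKM (SD, n = 3; 0.76, limma adjusted p = 0.116), and the difference of Atf7 was 0.31 (0.340). The differences of Maf and Atf7 were 0.77 and 0.17 without Ctrl replicate 1.

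Among genes known in other cells as AP-1 targets, 3 of 14 tested rose with NAD+ under differentiation conditions and 0 fell, with a list median of 0.10. Timp1, an inhibitor of metalloproteinases, was at 4.40, 4.27 and 5.01 FPKM in Ctrl and at 9.58, 9.08 and 7.49 FPKM with NAD+ (log2 difference 0.92, SE 0.11, limma adjusted p = 0.0108). Ccl2, a chemokine, was at 0.24, 0.40 and 0.90 FPKM in Ctrl and at 2.42, 1.93 and 2.30 FPKM with NAD+ (2.06, SE 0.38, limma adjusted p = 0.0304). Vim, an intermediate filament gene, rose from 144 ± 24.9 to 241 ± 12.3 FPKM (SD, n = 3; 0.75, limma adjusted p = 0.0202). The groups of these 3 genes were separate. Timp1 was lost without Ctrl replicate 1 only (adjusted p up to 0.0513), Ccl2 was kept only without Ctrl replicate 3 and Vim only without Ctrl replicate 1 (up to 0.0977 and 0.0730). Without moderation of the variance, the list had 1 call. Vim is also a marker of neural stem cells and astrocytes, and the astrocyte marker sum given above moved with it. In proliferating cells limma called 0 of 15, 6 had an unadjusted p-value under 0.05, and the differences were 1.38 for Ccl2 (limma adjusted p = 0.290) and -1.27 for Gja1 (0.267), which is also an astrocyte marker. Leaving out Ctrl replicate 1 gave 1.29 and -0.84.

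Of 9 genes for the turnover and modification of AP-1 proteins, 0 were called by limma for NAD+ under either condition, and 2 (differentiation) and 1 (proliferating) of them passed 0.05 without adjustment. Under differentiation conditions all 9 log2 differences were below 0, with a median of -0.10 beside -0.08 for all genes. Fbxw7, which marks c-Jun for degradation, had a difference of -0.53 (limma adjusted p = 0.218). Under proliferating conditions the difference of Det1, part of a ligase for c-Jun, was 0.46 (limma adjusted p = 0.446), and 0.17 without Ctrl replicate 1.

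Some genes had nearly the same pattern as a member over the 12 samples. Likeness was measured as the root mean square (RMS) difference, over the 12 samples, between the centred log2(FPKM + 0.1) values of a member and of another gene. The closest genes were sought among 12928 genes. This likeness is a description of these samples, in which the condition shift dominates. Closest to Junb were Lpin3, Cp and H2-D1 (RMS 0.31, 0.33 and 0.34 log2 units, where the RMS of Junb around its own mean was 1.23). The mean FPKM of H2-D1, a class I histocompatibility gene, was 14.6 and 17.1 in the proliferating Ctrl and NAD+ groups and 46.0 and 101 in the differentiation Ctrl and NAD+ groups. Closest to Fos were Nr1d1, Mgst1 and Coq8b (RMS 0.13, 0.14 and 0.15). Nr1d1, a nuclear receptor of the circadian clock, had mean FPKM values of 8.15, 8.92, 14.2 and 24.2 in the same order of groups. Closest to Fosl2 were Col5a2, Lypla2 and Gdpgp1 (RMS 0.14 to 0.19), and closest to Jun were Mtx2, F2r and Fam118b (RMS 0.10 each). Closest to Batf3 were Sema4a, Col9a2 and Gm50048 (RMS 0.46 to 0.49), of which Col9a2, a cartilage collagen gene, had mean FPKM values of 1.16, 0.277, 8.06 and 3.01. Jund, Fosb and Fosl1 were outside the limits set for this measure, a mean of at least 1 FPKM in a group and over 2-fold between the highest and lowest group means.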

How the data were processed

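RNA-seq was measured in 12 samples of aNSPCs. The authors prepared libraries with the NEBNext Ultra kit, mapped their reads with Hisat2 v2.0.5 to mm10 and counted uniquely mapped reads with FeatureCounts v2.0.1. The deposited values used here are FPKM, in a table for each condition, and the program behind them is not given in the sources used here. The deposited columns of fold changes, p-values and q-values, which hold the authors' own comparisons, were not used. All 12 FPKM columns were mapped by title, and 0 were left out. FPKM is scaled within a sample, so both tables stood in 1 fit where conditions were compared. The number 0.1 was added, log2 was taken, and genes whose FPKM averaged 0.1 or more across a fit were tested with limma 3.58.1 in R 4.3.3 (moderated, with a trend, two-sided, Benjamini-Hochberg over all tested genes). The p-values measure the spread between these samples, which may be technical. List genes were named when called, up to 4 for each list and condition by size with a mean of at least 1 FPKM in a group, or else the 2 largest, and 1 such gene is not reported here. Members and lists were chosen with earlier results of these data known. The code was tested on simulated data. Python 3.11.15 with pandas 2.3.3, numpy 2.4.6 and matplotlib 3.10.9 made the tables and figures.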

Additional observations from a re-analysis of the deposited data

Results flagged for a closer look

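The NAD+ effect on Ier3 differed between the conditions by a log2 difference of 1.28 (SE 0.212, limma adjusted p = 0.0342), with 3 of 3 NAD+ samples above every Ctrl sample under differentiation conditions. However, this call held in only 3 of 12 refits without 1 sample (limma adjusted p 0.0284 to 0.0905). For Mef2a, the NAD+ samples lay above all Ctrl samples under proliferating conditions and below all of them under differentiation conditions. The difference of its effects was -0.515 (SE 0.122, limma adjusted p = 0.0945) and was not called.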

How the results depend on the processing

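The depth of the samples is unknown, and each group has 3 samples. Counts of called genes moved with the settings, and the cause was not tested unless the setting itself removes genes or samples. For NAD+ under proliferating conditions, 27 genes were called, and 9 without the filter on low values, 75 with a mean FPKM of at least 1, 60 with quantile normalization, 0 without moderation of the variance, 0 with the replicate block, and 0 (for example without NAD+ replicate 1) to 36 without 1 sample. Under differentiation conditions, 1357 genes were called, and 758 with the replicate block, 594 without moderation and 328 (without Ctrl replicate 1) to 719 without 1 sample. For the difference of the NAD+ effects, 91 genes were called, and 139 with 1 added before log2, 26 with the replicate block and 12 (without proliferating NAD+ replicate 3) to 195 (without proliferating Ctrl replicate 1) without 1 sample. The number of members called there was 1 with quantile normalization and 0 to 1 without 1 sample. The study's thresholds (unadjusted p under 0.05 and over 2-fold) were also applied to the limma p-values used here. These p-values are not the authors' own, so the counts are not those that the paper reports. For NAD+, 559 genes were called under proliferating and 795 under differentiation conditions. Between the conditions, 6058 were called in Ctrl (11048 by adjusted p) and 6522 in the NAD+ samples (11386 by adjusted p). For the difference of the NAD+ effects, 816 were called. Of the members, NAD+ had 1 called under proliferating (Batf3) and 2 under differentiation conditions (Batf3 and Junb). Of the log2 differences of members under alternatives, 544 moved by less than the spread between replicates and 32 by more. Of the named list genes' results, 350 kept their side of the threshold, 92 lost it and 2 gained it. Counts for lists stayed within 1.5 times in 174 cases and moved in 66.

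Replicate numbers come from the titles. The deviations of same-numbered samples from their group means had small positive r across genes. It was 0.111, 0.0215 and 0.0529 under proliferating and 0.041, 0.0432 and 0.0257 under differentiation conditions. Such values cannot show whether these samples were paired, which the titles do not state. Each differentiation sample correlated best with its own number, whereas proliferating Ctrl replicate 3 did so with NAD+ replicate 2 (0.0734). With the block, 3 members (Fos, Junb and Batf3) were called for NAD+ under differentiation conditions and Fosl2 was not. The block left called 2 immediate-early genes (Egr1 and Ier3), 1 other partner (Atf4) and 1 AP-1 target (Timp1), and 0 genes of the other 5 lists. In all comparisons with the block, 10 of the named list genes' results lost their call and 6 counts for lists moved by over 1.5 times.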
